A study of Mus musculus with 185 samples.

Results

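The cells described here are epidermal Langerhans cells (LCs) in which at least 1 sequencing read fell on Ccr7, set beside LCs in which no read did. CCR7 is the chemokine receptor that guides LCs and dendritic cells (DCs) along gradients of CCL19 and CCL21 into lymphatic vessels and on to the draining lymph node. LCs that leave the epidermis raise CCR7 together with costimulatory molecules, the actin-bundling protein fascin and chemokines such as CCL22, a state called the mature migratory DC programme, while resting LCs sit anchored to keratinocytes. Of the 182 cells with at most 5% of their reads on mitochondrial genes, 71 had a Ccr7 read and 111 had none. Another 3 sequenced cells were over that limit, and all 3 had a Ccr7 read. The groups were chosen by their Ccr7 reads, so the Ccr7 values below describe the choice and support nothing else.

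The cells came from bone marrow chimeras (BMC). CD45.2 wild-type bone marrow was given to lethally irradiated CD45.1 Cd207DTR hosts of the B6 strain, whose Cd207 locus drives a receptor for diphtheria toxin (DT). All hosts received a low dose of DT, and the epidermis was taken 2 months later. Host LCs that survived are called eLCs (label E) and donor LCs of monocyte origin are called moLCs (label M). Single cells negative for lineage markers and positive for CD11c, CD11b, CD24, MHCII and CD326 were sorted into 2 plates and sequenced full length without molecular identifiers. Age is not stated in the sources used here. The labels name no animal, so each origin is 1 sample, no test was made and no p-value is given, and the 4 combinations of origin and plate serve only to describe whether a difference repeated. Intervals are at 95% and cover counting error only.

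Reads on genes ranged from 432614 to 4525429 per cell. The median was 2805480 in cells with a Ccr7 read and 2919210 in cells without one. The former had a median of 4323 genes per cell and the latter 4181. Both groups carried LC markers. The 15 LC markers summed to a median of 233841 counts per 1000000 reads (CPM; range 14868 to 358359) in Ccr7-read cells and 233438 CPM (62224 to 329156) in unread cells, and none of the 15 was at 0 in all cells. Keratinocyte markers were at most 765 CPM in a read cell and 836 CPM in an unread cell, with medians of 54.4 and 7.11 CPM, and Krt1, Krt15, Dsp and Dsg3 had no read in any cell. The T cell list had medians of 689 and 441 CPM (highest 1732 and 2029), mostly from Il7r, while Cd3e, Cd247, Thy1, Trbc1, Trbc2 and Trdc had no read. Monocyte markers had a median of 0 in both groups (highest 577 and 413 CPM, with Chil3, F13a1 and S100a8 at 0 in all cells), as had melanocyte markers. Dermal DC1 markers had medians of 66.1 and 57.5 CPM and DC2 markers 487 and 472 CPM. The part of the small differences in the keratinocyte and T cell lists in the results below was not tested.

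Among cells with a read, Ccr7 (ENSMUSG00000037944, GRCm38 chr11:99144196-99155077, minus strand) was mostly far above 1 read. Its reads ran from 4 to 40538 per cell. In eLCs of plate 1 the lowest, median and highest levels were 90.9, 697 and 3519 CPM, and in eLCs of plate 2 they were 50.5, 796 and 5280 CPM. The moLCs of plate 1 ran from 1.49 through a median of 1643 to 11689 CPM, and those of plate 2 from 237 through 686 to 4335 CPM. The 3 highest cells, at 11689, 9601 and 7496 CPM, were all moLCs of plate 1. A count of 0 reads allows up to 3 reads, which is 0.663 to 6.93 CPM in the unread cells (median 1.03 CPM). Thus 70 of the 71 read cells lay well above this bound, which covers counting error of reads only. It does not cover transcripts lost before sequencing, so an unread cell is not shown to lack the transcript. Nor is it shown to lack CCR7 protein or to have lacked the transcript at other times.

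**Figure D1:**
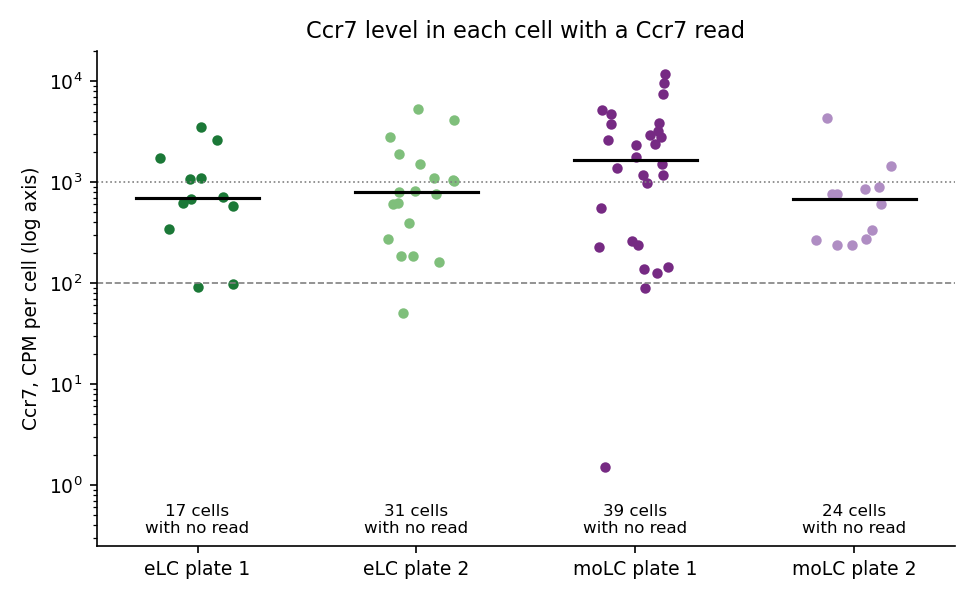
Ccr7 level (CPM, log axis) of every cell with a Ccr7 read, by origin and plate, with the median as a bar, lines at 100 and 1000 CPM, and the number of unread cells at the bottom. All but 5 of the 71 cells lie above 100 CPM, and the 3 highest are moLCs of plate 1.

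The share of cells with a Ccr7 read was much alike over origins and plates. It was 39.01% in all (exact Clopper-Pearson interval 31.9 to 46.5%). Within plates it was 41.4% (12 of 29) and 38% (19 of 50) in eLCs and 41.8% (28 of 67) and 33.3% (12 of 36) in moLCs. After thinning every cell to 2052512 reads, which left out 5 of 71 read and 14 of 111 unread cells that were shallower (1 of 19 and 8 of 31 in eLCs of plate 2), 66 of 163 cells (40.5%) had a read, and no thinned cell lost its Ccr7 call. Of the read cells, 5 lay under 100 CPM (1.49, 50.5, 89.8, 90.9 and 98.4 CPM), 33 lay from 100 to 1000 CPM and 33 at or above 1000 CPM. The cells next above the 100 CPM line were at 126 and 137 CPM, and those on either side of the 1000 CPM line were at 975 and 1031 CPM. Cells at or above 1000 CPM numbered 5 and 8 among eLCs and 18 and 2 among moLCs of plates 1 and 2, so the highest tier was drawn largely from moLCs of plate 1.

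One of these cells stood apart from the label. A moLC of plate 1 with 9601 CPM of Ccr7 had no read of Cd207, the gene of langerin that names LCs. Its 15 LC markers summed to 14868 CPM, against 122971 to 358359 CPM in the other 70 read cells. Its H2-Ab1 level, an MHC II chain, was 233 CPM, where the lowest other read cell had 28208 CPM, and it had no Cd86 read. The same cell had reads of 31 of the 43 genes of the mature migratory DC programme, the most of any cell. It held 97.7% of all Fscn1 reads (964 CPM; fascin), 74.6% of Ccl17 reads (31481 CPM), 36.3% of Ccl22 reads (43178 CPM) and 26.9% of Pdcd1lg2 reads (768 CPM). Results that this cell moved by over 1.5-fold are given with and without it.

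Few of the other genes separated the groups in all 4 combinations. For the 6443 genes read in 25% or more of either group, reads were summed over the cells of a group and scaled to CPM, and the log2 ratio of read over unread cells was taken (median over all these genes -0.06). Only 7 genes were at least 2-fold higher in Ccr7-read cells in every combination of origin and plate (0.109% of those compared), and 17 were at least 2-fold lower (0.264%). Of the 6443, 5612 were past the minimum in both groups, 447 only through the read cells and 384 only through the unread cells. For a gene that passed through a single group, the filter itself favoured the direction. With the softer rule of the same direction in all 4, 455 genes were higher (7.06%) and 695 lower (10.8%). At equal depth, the share of cells with a read was at least 15 percentage points higher in all 4 combinations for 8 genes (0.124%) and lower for 6 (0.0931%). Srgn was the one gene that passed both the 2-fold rule and the share rule.

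Srgn and Ccl22, which were read in the most cells among the secreted products of the 7, are described first, and the 250 bases before their RefSeq starts are shown because NF-kB genes are among the lists compared below. The RefSeq start of Ccl22 lies inside the gene as GENCODE annotates it, so its window overlaps the annotated gene. Srgn lies at chr10:62493833-62527451 (minus strand) and has 2 listed starts, and Ccl22 lies at chr8:94745590-94751699 (plus strand), both on GRCm38. The window of the upstream Srgn start overlaps the edge of the annotated gene, and that of the inner start lies wholly inside it. The sequences are from RefSeq on GRCm38.p6, 5′ to 3′ on the gene's strand, with capitals marking each match to GGGNNNNNCC on either strand, a loose form of the NF-kB motif.
Ccl22, chr8:94745434-94745683: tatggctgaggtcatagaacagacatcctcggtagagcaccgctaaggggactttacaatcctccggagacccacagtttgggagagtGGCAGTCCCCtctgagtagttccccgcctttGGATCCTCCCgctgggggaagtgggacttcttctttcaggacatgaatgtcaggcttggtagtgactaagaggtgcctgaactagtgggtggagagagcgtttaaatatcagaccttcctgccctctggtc
Srgn, upstream start, chr10:62527446-62527695: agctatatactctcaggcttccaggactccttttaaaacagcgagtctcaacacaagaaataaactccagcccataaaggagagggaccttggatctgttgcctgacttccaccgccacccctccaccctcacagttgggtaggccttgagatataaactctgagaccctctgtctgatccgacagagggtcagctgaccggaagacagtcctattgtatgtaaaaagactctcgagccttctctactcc
Srgn, inner start, chr10:62507758-62508007: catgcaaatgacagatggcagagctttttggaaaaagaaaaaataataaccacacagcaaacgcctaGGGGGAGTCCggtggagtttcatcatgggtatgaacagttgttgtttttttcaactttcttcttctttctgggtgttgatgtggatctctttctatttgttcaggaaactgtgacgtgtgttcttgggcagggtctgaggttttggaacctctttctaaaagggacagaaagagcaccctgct
Ccl22 had 2 matches, whose first bases lay at -162 and -131 from the start, the inner Srgn start had 1 at -183 and the upstream start had none. At least 1 match occurs in 15046 of 32851 promoters of the same length (45.8%), and 2 or more occur in 23.2%. A match is thus a description of the sequence and no more.

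Srgn encodes serglycin, the proteoglycan that packs proteases, cytokines and chemokines into secretory granules of blood cells. A read was found in 44 of 71 Ccr7-read cells (61.97%, 49.7 to 73.2%) and in 33 of 111 unread cells (29.7%, 21.4 to 39.1%). At the thinned depth they were 60.6% and 27.8%. Cells with a Ccr7 read had a median of 49.7 CPM and reached 5045 CPM, while unread cells had a median of 0 and reached 632 CPM. The groups overlapped, since 27 read cells had no Srgn read. Summed levels of read against unread cells were 129 against 14.3 CPM in eLCs of plate 1, 176 against 24.4 CPM in eLCs of plate 2, 342 against 27.6 CPM in moLCs of plate 1 and 351 against 70.5 CPM in moLCs of plate 2. The log2 ratio was 2.95 over all cells and 3.17, 2.85, 3.63 and 2.32 in that order, and leaving out each cell in turn moved the pooled value between 2.62 and 3.20. Srgn passed the 2-fold rule in all 182 of these runs, each of which left out only 1 cell. The highest Srgn levels, 5045 and 3009 CPM, were in read moLCs of plate 1 with little or no langerin transcript. The first had 42.6 CPM of Cd207 and the second had no Cd207 read. Without the second, the ratio of moLCs of plate 1 was 3.30, and the ratio without both was not computed.

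Ccl22 encodes the chemokine that draws CCR4-bearing T cells, among them regulatory T cells, to mature DCs. It had a read in 39 Ccr7-read cells (54.9%, 42.7 to 66.8%) and 31 unread cells (27.9%, 19.8 to 37.2%). The summed level was 1042 against 112 CPM, a log2 ratio of 3.22. Cell levels had a median of 32.3 CPM and a highest value of 43178 CPM among read cells, and a median of 0 and a highest value of 1322 CPM among unread cells. By combination, the levels were 771 against 129.8 CPM in eLCs of plate 1, 556 against 53.3 CPM in eLCs of plate 2, 1773 against 137 CPM in moLCs of plate 1 and 309 against 123 CPM in moLCs of plate 2, which gave log2 ratios of 2.57, 3.38, 3.69 and 1.33. Without the cell that had no Cd207 read, the pooled ratio was 2.44 and that of moLCs of plate 1 was 2.33, still the same direction.

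**Figure D2:**
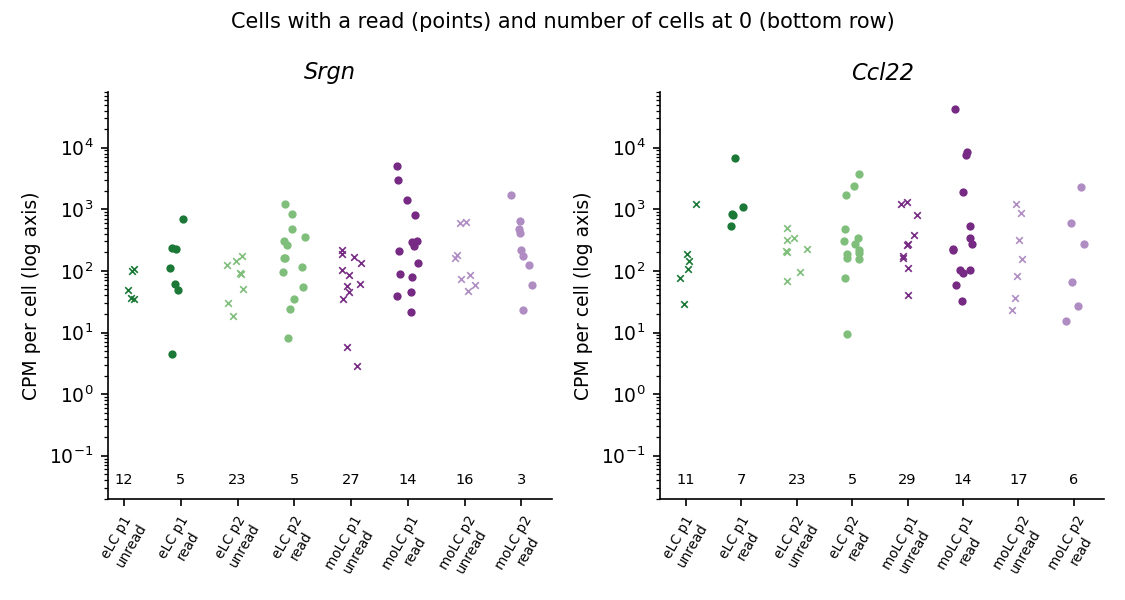
Srgn and Ccl22 levels (CPM, log axis) of the cells with a read of each, by origin, plate and Ccr7 group, with the number of cells at 0 at the bottom. In every combination a larger share of Ccr7-read than of unread cells has a read, and the ranges overlap.

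The other 5 genes higher by 2-fold were read in fewer cells or at low levels. Cd14, Crip1 and Ralgds were past the 25% minimum only through the read cells. Cd14, the co-receptor for lipopolysaccharide, was at 156 against 39.1 CPM (log2 1.998), with reads in 21 of 71 and 20 of 111 cells. Crip1, a LIM domain protein, was at 406 against 82.8 CPM (log2 2.29) in the same numbers of cells. Gpalpp1 (49.2 against 18.9 CPM, 1.38), Ralgds, an exchange factor for Ral GTPases (21.03 against 6.96 CPM, 1.60), and Mier3, a corepressor subunit (9.95 against 3.33 CPM, 1.58), completed the 7. All but Srgn turned on 1 moLC of plate 2, among only 12 read cells there. This cell had 1430.3 CPM of Ccr7 and 6402 CPM of Cd207. It held 66.8% of the Ccl22 reads, 89.03% of the Crip1 reads and 43.6% of the Srgn reads of its group. Without it only 2 genes were at least 2-fold higher in all 4 combinations, Srgn and the predicted gene Gm18445. The log2 ratio of moLCs of plate 2 then went from 1.33 to -0.12 for Ccl22, from 1.13 to -1.92 for Crip1 and from 2.32 to 1.63 for Srgn, and the pooled ratio of Ccl22 was 3.19.

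Most of the 17 genes lower by 2-fold were read in a minority of cells. Wdsub1, Pafah1b3, Dag1, Ppp1r21, Rnpepl1, Gm15387, Myo18a and Snhg12 were past the 25% minimum only through the unread cells. Ppp1r21, an endosomal protein, had a read in 8 of 71 Ccr7-read cells and 33 of 111 unread cells, at 4.78 against 35.9 CPM (log2 -2.91). Pafah1b3, a catalytic subunit of platelet-activating factor acetylhydrolase, had reads in 8 and 35 cells, at 5.66 against 28.5 CPM (-2.33), with log2 ratios of -4.38, -1.79, -1.58 and -2.67. Dag1, the adhesion receptor dystroglycan, was at 3.27 against 16.6 CPM (-2.34) in 10 and 32 cells, and Wdsub1 at 2.63 against 24.2 CPM (-3.20) in 6 and 28 cells, with no read in the read cells of eLCs of plate 1 and of moLCs of plate 2. Snx13, a sorting nexin, was lower in level (7.55 against 31.6 CPM, -2.07) but not in the share of cells (26.8 against 27.9%). Rnpepl1, an aminopeptidase-like protein (-2.35), Myo18a, an unconventional myosin (-2.04), Acot8, a peroxisomal thioesterase (-1.55, with an exon that overlaps Snx21), the small nucleolar RNA host Snhg12 (-1.49) and the pseudogene Gm15387 (-1.75) were also among them. Gm15387 had very few reads, at 0.352 CPM in unread cells. The remaining 7 were Dgkh, Fam234b, Plin2, Smim8, Trit1, Trp53i11 and Whamm. Snx13, Pafah1b3, Dag1 and Ppp1r21 passed the rule whichever single cell was left out, while Wdsub1 did not in 28 of 182 runs. Each of those runs left out an unread cell, and the share of unread cells with a Wdsub1 read, 25.2%, was just above the 25% minimum.

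**Figure D3:**
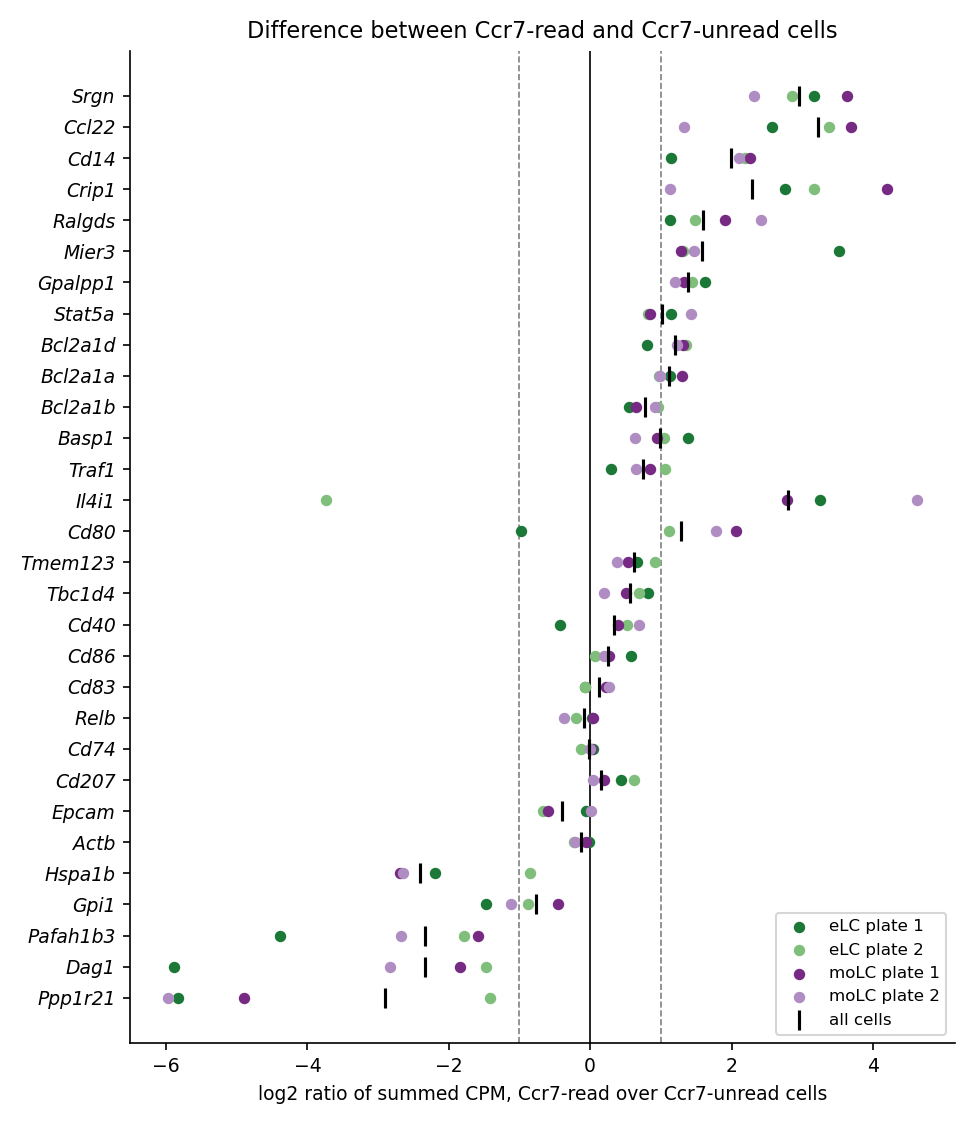
Log2 ratio of summed CPM, Ccr7-read over unread cells, for 30 genes in each combination of origin and plate (dots) and over all cells (black tick), with dashed lines at 2-fold. Srgn lies beyond 2-fold in all 4, while Il4i1 lies below 0 in eLCs of plate 2.

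By the share of cells at equal depth, Stat5a was among the 8 genes higher and Tubb5 among the 6 lower. Stat5a, which carries signals of GM-CSF and related cytokines, had a read in 92.4% of Ccr7-read and 64.9% of unread cells. Its level was 354 against 175 CPM, with a median per cell of 200.1 against 40.04 CPM, and the log2 ratio was 1.02 overall and 1.14, 0.82, 0.85 and 1.43 by combination. An exon of Stat5a (chr11:100859351-100885169) overlaps Stat3 on the other strand, and the library kit is not known to mark strand, so reads in that stretch cannot be told apart. Mapkapk2, a kinase downstream of p38, was read in 93.9 against 71.1% of cells although its level differed less (log2 0.39). Mid1 (68.2 against 36.1%), a microtubule-bound ubiquitin ligase whose level went the other way in moLCs of plate 1 (log2 -0.72), Rnaseh2b (62.1 against 37.1%), a subunit of ribonuclease H2, Pde6d (68.2 against 45.4%), Ccdc186 (57.6 against 37.1%, with a summed level lower in 3 of 4 combinations and log2 -0.14 over all cells) and the zinc transporter Slc39a1 (39.4 against 18.6%) were the others beside Srgn. Fewer Ccr7-read cells had a read of Ier5l (15.2 against 45.4%), the beta-tubulin Tubb5 (42.4 against 70.1%), the ubiquitin ligase Traf7 (42.4 against 63.9%), the sugar-phosphate exchanger Slc37a3 (13.6 against 34.02%) and the pseudogenes Gm1840 (39.4 against 68.04%) and Gm4835. Both pseudogenes had very few reads, at 1.58 and 0.378 CPM in unread cells.

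The mature migratory DC programme was only slightly higher as a whole. Of its 43 genes, 25 were past the 25% minimum, 22 of them in both groups, 2 only through the read cells and 1 only through the unread cells. Their median log2 ratio was 0.38, against -0.06 over all genes, 0.43 over the 22, and 0.17, 0.31, 0.51 and 0.29 by combination (SD 0.14). Over all cells 22 of the 25 were above 0 (88%, against 43.2% of all genes) and 3 were below. Ccl22 was the one member past the 2-fold rule and none was past the share rule. In all 4 combinations 7 were above 0 (28%, against 7.06% of all genes), namely Ccl22, Traf1, Cd86, Tmem123, Ramp3, Spint2 and Tbc1d4, and Rabgap1l was below 0 (4%, against 10.8%). Without the cell that had no Cd207 read the median was again 0.38. The list was set with earlier results of these cells in view.

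Of the costimulatory members, Cd80 differed by over 2-fold and Cd83, Cd86 and Cd40 by less. Cd83, a marker of mature DCs, was read in 100% of Ccr7-read and 96.4% of unread cells, with medians per cell of 5289.6 and 4438 CPM and ranges that overlapped, and its log2 ratio was 0.12. Cd86 was at 1862 against 1560.3 CPM (0.26), above 0 in all 4 combinations by 0.06 to 0.58. Cd40 was at 1050.3 against 828 CPM (0.34) but lower in eLCs of plate 1 (-0.43). Cd80 was read in 35 of 71 and 32 of 111 cells, at 55.3 against 22.6 CPM (1.29), with log2 ratios of -0.98, 1.11, 2.06 and 1.78. The whole list of costimulatory and checkpoint genes had a median of 0.30 over the 8 members past the minimum, with none past either rule.

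Il4i1, a secreted amino acid oxidase typical of mature DCs, was higher in 3 of 4 combinations. It was read in 28 of 71 cells (39.4%, 28.03 to 51.7%) and 19 of 111 (17.1%, 10.6 to 25.4%), at 457 against 65.5 CPM (log2 2.80). The combinations gave 293 against 30.9 CPM in eLCs of plate 1, 6.01 against 80.05 CPM in eLCs of plate 2, 602 against 87.5 CPM in moLCs of plate 1 and 956 against 38.7 CPM in moLCs of plate 2. The summed level in eLCs of plate 2 thus ran the other way (-3.73). The highest unread cell there had 1377 CPM, the next had 318 CPM and the highest read cell had 98.7 CPM. Exons of Il4i1 overlap Nup62, Atf5 and Tbc1d17. Of the remaining members, Traf1, an adaptor of TNF receptors induced by NF-kB, was at 627 against 375 CPM (0.74) and was read in 95.8 against 78.4% of cells, and Tbc1d4, a Rab GTPase-activating protein, was at 3068 against 2071 CPM (0.57) with log2 ratios of 0.81, 0.69, 0.51 and 0.20. Ramp3, a co-receptor of the calcitonin receptor family, was at 264 against 94.8 CPM (1.48) but nearly level in eLCs of plate 2 (0.06). The NF-kB subunits Relb (-0.09) and Nfkb2 (-0.30) and the Rab regulator Rabgap1l (-1.35) were the 3 members below 0 over all cells. Cxcl16 (0.14), Birc3 (0.16), Serpinb6b (0.18), Cd63 (0.22), Serpinb9 (0.26), Cst7 (0.37), Marcksl1 (0.38), Net1 (0.47), Icam1 (0.49), Tmem123 (0.62), Spint2 (0.66), Samsn1 (0.82) and Zmynd15 (0.98) were above 0, and Samsn1 stood at 0.38 without the cell that had no Cd207 read.

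The 18 programme genes read in under 25% of either group included those most tied to departure from the skin, and 5 of them (Eno2, Il15ra, Il12b, Slco5a1 and Clu) had no read in any cell. At least 1 of the 18 was read in 37 of 71 Ccr7-read cells (52.1%, 39.9 to 64.1%) and in 49 of 111 unread cells (44.1%, 34.7 to 53.9%), intervals that overlapped. At least 3 of them were read in 11 and 6 cells. Cacnb3, a calcium channel subunit, was read in 12 cells (16.9%) against 3 (2.70%), Stat4 in 6 against 1, Apol7c in 5 against 1, Pdcd1lg2 (PD-L2) in 9 against 5 and Anxa3 in 3 against 0. Fscn1 was read in 2 cells of each group, Ccl17 in 4 and 3, Cd274 (PD-L1) in 5 and 7, and Socs2 in 15 and 23. Most Ccr7-read cells therefore had no read of fascin, PD-L2 or Ccl17.

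Cell by cell, the number of the 43 programme genes with a read ran from 14 through a median of 19 to 31 in Ccr7-read cells and from 5 through 18 to 22 in unread cells. At equal depth the medians were 18 with no Ccr7 read, 21 under 100 CPM (5 cells), 18 from 100 to 1000 CPM and 20 at or above 1000 CPM. The highest Ccr7 cell (11689 CPM) had 19 programme genes, 32.3 CPM of Ccl22, no Il4i1 read and 38452 CPM of Cd207. The third highest (7496 CPM) had 8428 CPM of Ccl22, 6816 CPM of Il4i1 and 746 CPM of Cd80. High Ccr7 thus came both with and without high levels of these genes.

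**Figure D4:**
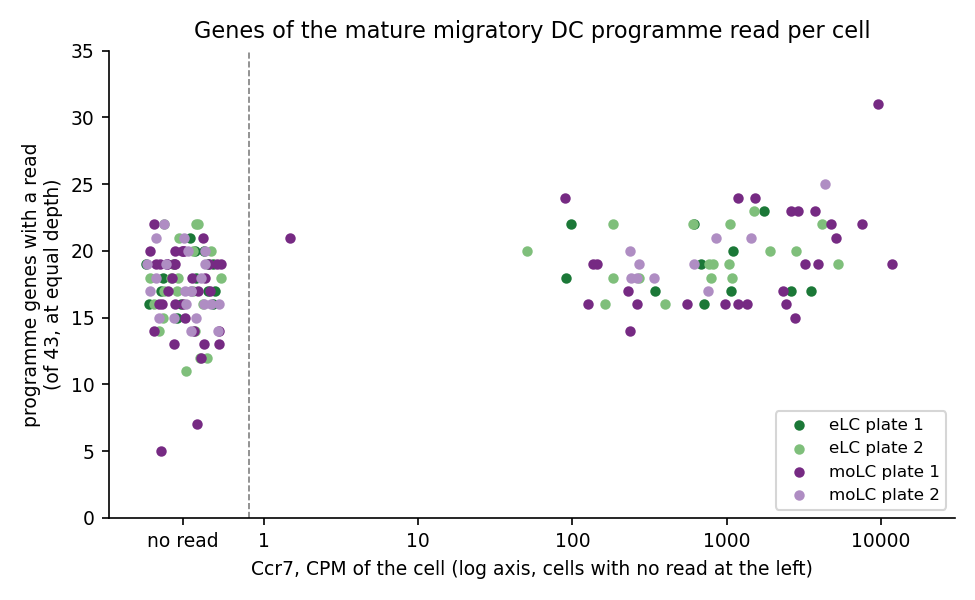
Number of the 43 programme genes with a read in each cell at equal depth against its Ccr7 level (CPM, log axis, unread cells at the left). Most cells with and without Ccr7 lie between 14 and 24 genes, and 1 moLC with 31 lies apart.

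The tiers of Ccr7 differed by gene. Ccl22 was read in 27.9% of unread cells, 33.3% of cells from 100 to 1000 CPM and 75.8% (57.7 to 88.9%) of cells at or above 1000 CPM, at 112, 134 and 2009 CPM, the last being 1109 CPM without the cell that had no Cd207 read. Srgn was already read in 54.5% of the middle tier and in 66.7% of the top tier (34.1, 86.98 and 412 CPM). Stat5a was read in 63.96, 87.9 and 96.97% of cells (175, 218 and 489 CPM) and Traf1 in 78.4, 93.9 and 96.97% (375, 642 and 614 CPM). Cd83 levels were 5304, 5664 and 6119 CPM. The 5 cells under 100 CPM do not lie in sequence, with Srgn read in 4 of them and Il4i1 in 80%. Against unread cells, the top tier had 17 genes past the 2-fold rule upward, 2 of them shared with the 7, and 91 downward. Its programme median was 0.60. The top tier held only 2 moLCs of plate 2, 1 of them the cell with 1430 CPM of Ccr7 described above. The rule thus rested on 2 cells in that combination. Without the cell that had no Cd207 read the counts were 17 upward and 99 downward and the median was 0.59.

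**Figure D5:**
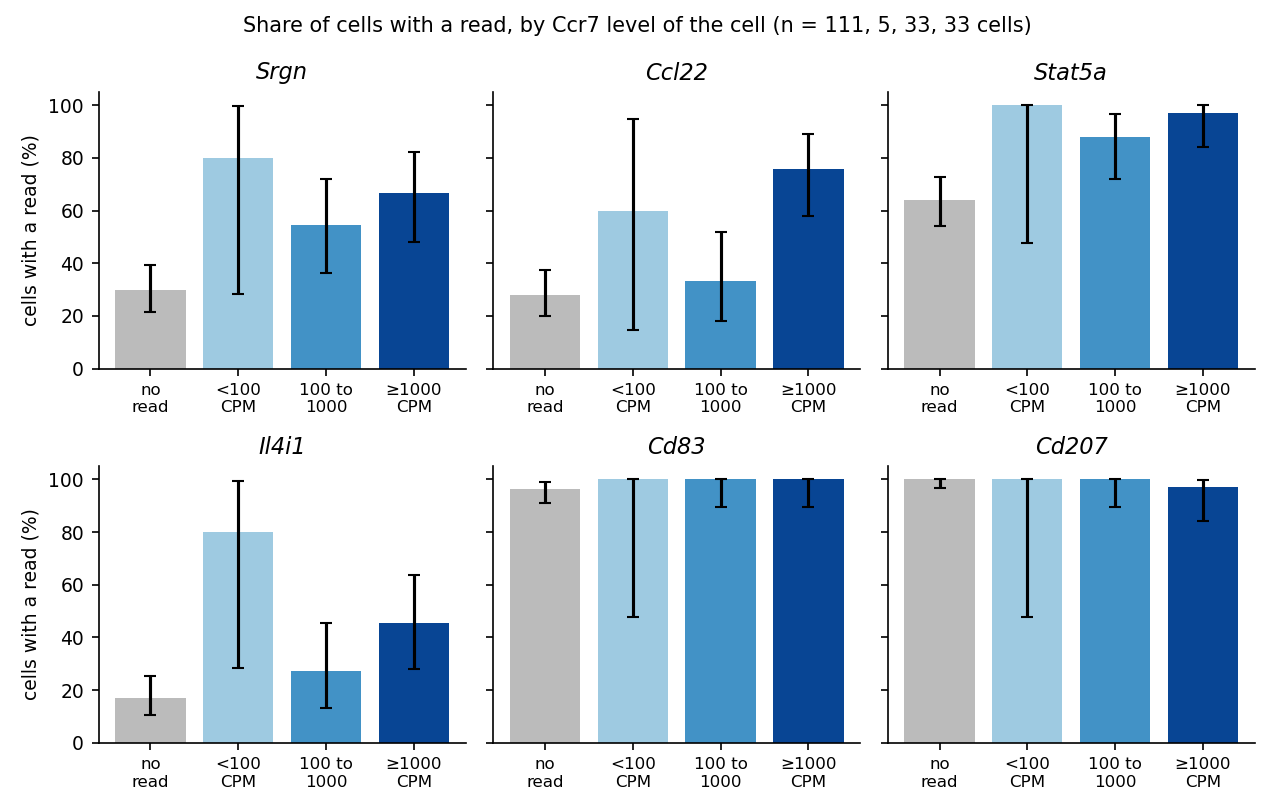
Share of cells with a read (%, with exact 95% intervals) of Srgn, Ccl22, Stat5a, Il4i1, Cd83 and Cd207 in 4 tiers of Ccr7. Ccl22 is read in 33.3% of cells from 100 to 1000 CPM and in 75.8% at or above 1000 CPM, while Cd83 and Cd207 are read in nearly every cell of each tier.

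The genes whose level followed Ccr7 most closely from cell to cell were Bcl2a1d and Bcl2a1a, which encode a survival protein. The measure is Spearman's rho over cells within each combination, taken at its lowest of the 4, over 5987 genes. The correlations share depth and library with Ccr7, 111 cells are tied at 0, and no p is given. Bcl2a1d had 0.37 at its lowest and 0.39 over all 182 cells, where the median gene had -0.01. It was followed by Bcl2a1a (0.34 and 0.38), Basp1 (0.30 and 0.32), Srgn (0.29 and 0.38), the MHC I chain H2-K1 (0.27 and 0.33), Stat5a (0.26 and 0.35), Bcl2a1b (0.25 and 0.37), Bcl2a1c (0.24 and 0.32), Mbp (0.22 and 0.27) and Traf1 (0.22 and 0.31). Among the 71 read cells alone these values were 0.30, 0.26, 0.22, 0.17, 0.24, 0.22, 0.20, 0.30, 0.37 and -0.01, all weak.

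The Bcl2a1 genes encode A1, a short-lived relative of BCL2 that blocks cell death and is induced by NF-kB. Nearly every cell of both groups had a read of Bcl2a1d (98.6 and 96.4%), so the groups differed in level. The median per cell was 325 CPM (range 0 to 1814) with a Ccr7 read and 145 CPM (0 to 1329) without. Summed levels were 474 against 206 CPM, a log2 ratio of 1.20 (0.81, 1.36, 1.32 and 1.23 by combination). Bcl2a1a was at 238 against 110.3 CPM (1.11) and Bcl2a1b at 319 against 187 CPM (0.77). The copies Bcl2a1d, Bcl2a1a and Bcl2a1b are near identical. Of their 50-base transcript windows, 79.5%, 68.96% and 57.6% in that order were found in another copy, so how reads were split among them is uncertain. Bcl2a1c shared only 10.4% of its windows and had few reads, at 1.95 CPM in unread cells. In the BCL2 family list 4 of 10 members past the minimum were above 0 in all 4 combinations (40%, against 7.06% of all genes). They were Bcl2l1 (BCL-XL, 0.72) and 3 of the near-identical Bcl2a1 copies, which are not separate evidence, while Mcl1 had 0.09.

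The NF-kB list had a median of 0.28 over 18 members, with 5 above 0 in all 4 combinations (27.8%, against 7.06% of all genes), namely Nfkb1, Rel, Nfkbib, Nfkbiz and Traf1, and Nfkbie below (5.56%, against 10.8%). Rel, the subunit c-Rel, was at 514 against 348 CPM (0.56). Of 23 chemokine and guidance receptors 4 were past the minimum, 2 of them only through the read cells, with a median of 0.68 over the 4 and 0.50 over the 2 that passed in both groups. Gpr183, the oxysterol receptor that positions DCs in lymphoid organs, was at 677 against 349 CPM (0.95, with 0.74, 1.498, 0.48 and 1.15 by combination), Ccr1 had 0.97, Cxcr4 0.41 and P2ry10 0.05. Over the 8 chemokines and cytokines past the minimum the median was -0.02, and over the 7 other than Ccl22 it was -0.04, among them Il1b (-0.28), Cxcl2 (-0.04) and Tnf (-0.005). The interferon-stimulated list had 4 members past the minimum, with a median of -0.28, and of 0.06 over the 2 that passed in both groups.

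The LC identity and antigen presentation lists had medians close to level. Over 27 identity and anchorage genes the median was 0.01. In all 4 combinations 4 were above 0 (14.8%, against 7.06% of all genes) and 5 below (18.5%, against 10.8%). Cd207 had a median per cell of 6699 and 6696 CPM in read and unread cells and a log2 ratio of 0.16. Cd207 levels were mostly higher in moLCs than in eLCs, so these pooled medians say little about the level within an origin. The log2 ratio of Cd207 was 0.44 in eLCs of plate 1 and 0.62 in eLCs of plate 2. In moLCs of plate 1, without the cell that had no Cd207 read, it was 0.24, and in moLCs of plate 2 it was 0.04. Epcam, the adhesion molecule CD326 used in the sort, was at 649 against 859 CPM (-0.40), while Csf1r (-0.14), Mfge8 (0.14) and the tight junction gene Cldn1 (-0.12) were nearer 0. MHC II genes had a median of -0.01 over 13 members, with Cd74 at -0.02, H2-Ab1 at -0.01 and H2-Aa at 0.09. Of the 13, 1 was above 0 in all 4 combinations (7.69%, against 7.06%) and 2 were below (15.4%, against 10.8%). H2-DMa, a chain of the peptide-loading chaperone H2-DM, ran lower in all 4 combinations, at 716 against 1352 CPM (-0.92, with -1.56, -1.31, -0.72 and -0.33). MHC I genes had a median of -0.04 over 16, with B2m at -0.05 and H2-D1 at 0.29. Of the 16, 3 were above 0 in all 4 combinations (18.8%, against 7.06%) and 2 were below (12.5%, against 10.8%). Uptake and pattern receptors had a median of 0.06 over 12, and beside Cd14 the lectins Clec7a (0.08) and Ly75 (0.46) and the Fc receptor Fcgr2b (0.04) did not pass either rule.

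Actin and motility genes had a median of 0.02 over 48, with 7 above 0 in all 4 combinations (14.6%, against 7.06% of all genes) and 2 below (4.17%, against 10.8%). Rhoc, a small GTPase of cell motility, was at 90.1 against 37.3 CPM (log2 1.27, with 0.95, 0.89, 1.47 and 1.43, and 1.21 without the cell that had no Cd207 read). It was read in 34.2% of unread cells, 36.4% of cells from 100 to 1000 CPM of Ccr7 and 90.9% of cells at or above 1000 CPM. Tmsb4x, which binds actin monomers, was at 4951 against 3388 CPM (0.55), or 0.38 without the cell that had no Cd207 read, while Vim (-0.01) and Actb (-0.13) were level. Matrix proteases and their inhibitors had a median of -0.17 over 15.

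Glycolysis genes had a median of -0.23 over 16, with 3 below 0 in all 4 combinations (18.8%, against 10.8% of all genes), Gpi1, Tpi1 and Pkm. Gpi1 was read in 61.97 against 86.5% of cells (log2 -0.76) and Tpi1 was at 189 against 278 CPM (-0.56). The most abundant members were Gapdh (-0.12), Aldoa (-0.28), Pkm (-0.38) and Ldha (-0.50), and no member of the list passed the 2-fold or the share rule. Immediate early and heat shock genes had a median of -0.34 over 28, with 5 below 0 in all 4 combinations (17.9%, against 10.8% of all genes) and 1 above (3.57%, against 7.06%). The median by combination was -0.87, -0.22, -0.17 and -0.01, so there was next to no difference in moLCs of plate 2. The most abundant, the chaperones Hspa8 (-0.24) and Hsp90ab1 (0.11), were near level. Hspa1b was at 268 against 1417 CPM (-2.41, with -2.19, -0.85, -2.68 and -2.65), and 1 unread moLC of plate 1 with 155556 reads moved the pooled value to -1.81 when left out. Among 7 cell cycle genes past the minimum the median was -0.38, yet Mki67, the gene of Ki-67, was read in 74.6 against 52.3% of cells at 125 against 69.3 CPM (0.85, with 0.82, 1.02, 0.71 and 0.92), and Tubb5 was the member lower by the share rule.

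The difference between origins was not tested. In eLCs and moLCs the log2 ratios were 2.94 and 2.97 for Srgn, 2.94 and 3.35 for Ccl22, 0.98 and 1.05 for Stat5a, 1.13 and 1.27 for Bcl2a1d, and 0.71 and 0.76 for Traf1. Without the cell that had no Cd207 read the moLC ratio of Ccl22 was 2.13, below that of eLCs. Il4i1 (1.04 and 3.36) and Cd80 (0.09 and 2.01) were further apart. The 6 genes of origin named by the study and past the minimum had a median of 0.09 between Ccr7 groups.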

How the data were processed

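Single epidermal LCs of BMC were sequenced with a Smart-Seq kit and Nextera XT libraries, without molecular identifiers, and the reads include PCR copies. Per the labels and methods, the authors used STAR and mm10 for alignment, and the deposited table holds raw counts of reads on each gene, not normalized. The counting tool and annotation are not given in the sources used here. In 8 cells, 9 deposited values were not whole, like expected counts, and were rounded. All deposited columns matched a label. Of 45661 genes, 45495 had a name in GENCODE M21, whose GRCm38 coordinates were used, and 27808 had no read.

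The 3 cells with over 5% mitochondrial reads were not used. Cells with at least 1 Ccr7 read were compared with cells with none, in eLCs and moLCs on 2 plates. The plate is the one batch in the labels. Members and gene lists were chosen with earlier results of these data known. Reads were summed over cells and scaled to 1000000 reads on genes, and a stratum with none was floored at 3 reads for the whole group. The size rule asked that 25% of the read or unread cells hold a read, with a 2-fold difference in all 4 combinations, and the share rule for 15 percentage points after thinning to 2052512 reads (the 10th percentile of totals). Named genes were the 10 largest per direction under each rule by their smallest difference of the 4, the 10 most like Ccr7, every programme gene past the minimum, and of other lists those past a rule and up to 4 with the highest level. Bcl2l1, Epcam, Gpi1, Tpi1, H2-DMa, Hspa1b, Mki67, Rel, Rhoc, Nfkb1, Nfkbiz, Gm18445, Irf4 and Ebi3 fall outside this rule and were chosen after their values were seen. Intervals were exact Poisson for sums, exact Clopper-Pearson for shares and binomial for ratios. Doublets were not called, since the sort was of single cells. No 2 cells had identical values.

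Tools were Python 3.11.15, numpy 2.4.6, pandas 2.3.3, scipy 1.17.1, matplotlib 3.10.9, and R 4.3.3 with edgeR 4.0.16 for TMM factors only. The scripts were tested on simulated data. Alternatives were thinning, cuts on Ccr7 of 100 CPM and 10 reads, equal weight per cell, TMM factors, totals without the 50 most counted genes, no mitochondrial filter, other minimum shares, 1.5-fold, each plate or origin alone, pooled cells, and each cell left out. A cut of 1000 CPM, the share rule without thinning, and leaving out the 3 highest Ccr7 cells or the cell with no Cd207 read (also at 1000 CPM and by origin) were added after seeing the data.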

Additional observations from a re-analysis of the deposited data

How the results depend on the processing

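The counts of genes past the 2-fold rule depended on the minimum share, the fold, the number of combinations and a cut on Ccr7 of 1000 CPM. Against 7 higher and 17 lower genes, a minimum share of 10% gave 34 and 70, a minimum of 50% gave 3 and 0, no minimum gave 46 and 148, and 1.5-fold gave 33 and 79. Fewer combinations passed more genes by construction, with 80 and 242 for plate 1 alone, 192 and 188 for plate 2 alone, 152 and 302 for eLCs alone, 93 and 143 for moLCs alone and 124 and 231 for pooled cells. Thinning gave 11 higher genes, 6 of them shared with the 7. Cells at or above 1000 CPM of Ccr7 against unread cells gave 17 and 91, of which 2 and 8 were shared, and the cause was not tested. The other alternatives gave 6 to 8 higher and 16 to 22 lower genes. Leaving out each cell in turn gave 2 to 9 higher and 13 to 20 lower genes. Without thinning the share rule passed 10 genes upward, 5 of them shared, and 6 downward, 3 of them shared.

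The median of the programme was 0.60 for cells at or above 1000 CPM and lay between 0.24 (eLCs alone) and 0.46 (moLCs alone) otherwise, with the main value at 0.38. Of 61 named genes, 59 kept their sign after thinning and 60 with 100 CPM of Ccr7 against all other cells, while 5 turned in eLCs alone, 4 on plate 1 alone, 3 in moLCs alone, and 2 each on plate 2 alone and at 1000 CPM of Ccr7. Each origin has cells of unnamed animals, so no difference here can be set against the spread between animals. No paired analysis was possible because the result comes from no test and the labels give no replicate numbers for animals. A read count of 0 does not show that a transcript was absent, and PCR copies can make 1 molecule weigh as many reads.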

Other observations

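Irf4, a transcription factor that dendritic cells need for migration, was above 0 in all 4 combinations of origin and plate. It was read in 27 of 71 Ccr7-read cells and 32 of 111 unread cells, at 71.5 against 25.6 CPM (log2 1.48, with 0.52, 2.16, 0.95 and 3.41), and was chosen after its values were seen.

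A few genes ran in opposite directions in the 2 origins, though Fos and Ebi3 differed little in moLCs of plate 1. These genes were also chosen after their values were seen. The immediate early gene Fos was lower in Ccr7-read eLCs on both plates (436 against 3107 CPM and 481 against 3509 CPM) and higher in Ccr7-read moLCs (3141 against 2704 CPM and 4546 against 2789 CPM). The phosphatidylserine receptor gene Timd4 was higher in Ccr7-read eLCs (926 against 469 CPM and 532 against 224 CPM) and lower in Ccr7-read moLCs (18.2 against 112 CPM and 75.1 against 247 CPM). Ebi3, a cytokine subunit of IL-27 and IL-35, was higher in Ccr7-read eLCs (76.9 against 13.1 CPM and 69.5 against 15.7 CPM) and stood at 37.8 against 43.9 CPM and 4.71 against 19.05 CPM in moLCs. The difference between origins was not tested, as each origin is 1 sample.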
